A study of Rattus norvegicus with 54 samples.

Results

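The fatty acid binding proteins (FABPs) examined here were Fabp1, Fabp2, Fabp3, Fabp4, Fabp5 and Fabp7, taken by gene symbol from the platform annotation. Each of these 6 genes had 1 probe set, a set of short probes for 1 transcript, so the family made up 6 of the 15866 probe sets measured besides controls. The probe sets were picked by gene name, and the members and tests were chosen with earlier results of these data known. Transcripts were measured on 54 Affymetrix Rat Expression Set 230A arrays from male Zucker rats, with 18 arrays each for epididymal adipose tissue, liver and gastrocnemius, a calf muscle. The 6 groups per tissue were lean fa/+ rats, untreated obese fa/fa rats, and obese fa/fa rats given 1 of the compounds pioglitazone, rosiglitazone, troglitazone or AG035029. The fa mutation disables the leptin receptor, so fa/fa rats overeat and become insulin resistant, and lean controls carried 1 copy of it. All 4 compounds are ligands of PPARgamma, a nuclear receptor that drives fat cell differentiation. The first 3 are thiazolidinediones, and the labels name AG035029 by its code alone. Each of the 3 arrays of a group held RNA pooled from 2 rats, so a group stands for 6 rats. No ligand was given to lean rats, and dose, duration and age are not given in the labels.

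FABPs are small cytosolic proteins that hold a long-chain fatty acid inside a barrel-shaped fold and carry it to mitochondria, lipid droplets, membranes or the nucleus. They were named after the tissue where each is abundant. Fabp1 is the liver form, Fabp2 the intestinal form, Fabp3 the form of heart and oxidative muscle, Fabp4 the fat cell form (aP2), Fabp5 the epidermal form and Fabp7 the brain form. Fabp4 is a classic PPARgamma target in fat cells, where Fabp5 is also made, and Fabp1 is a target of the related receptor PPARalpha in liver. Fabp4 and Fabp5 lie near each other on chromosome 2, in the gene order Fabp12, Fabp4, Fabp9, Pmp2, Fabp5 of the GRCr8 reference table, while Fabp3 is on chromosome 5, Fabp1 on 4 and Fabp7 on 20.

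Array medians of the signal, the linear brightness that the MAS5 program gives each probe set, lay between 191 and 248 over the 54 arrays. A probe set was tested in a tissue when its mean log2(signal + 20) was above the 40th percentile there, which left 9519 per tissue. Differences are on this log2(signal + 20) scale, which understates changes of dim probe sets, errors after ± are standard errors from limma unless an SD is named, and a change is called at an adjusted p (limma, Benjamini-Hochberg) under 0.05. One liver array stood apart. Troglitazone replicate 3 had signals of 13600 for the muscle actin gene Acta1, 2990 for the muscle creatine kinase gene Ckm and 1380 for the myoglobin gene Mb, against at most 316, 450 and 83.3 on 16 other liver arrays. In adipose tissue the residual spread of rosiglitazone replicate 2 and troglitazone replicate 2 was 1.33 and 1.28 times the tissue median. The summed signal of 3 epididymis markers reached 6080 on 1 AG035029 adipose array (group median 269), against at most 318 in other adipose groups. That of 7 epithelial markers reached 7270 with rosiglitazone, 5340 in untreated obese rats and 4540 with AG035029 (group medians 1290, 2900 and 983). Neither sum was used to choose arrays to leave out. In muscle the fat cell hormone gene Lep had signals of 147 in pioglitazone replicate 1 and 271 in troglitazone replicate 1 against at most 56.2 elsewhere.

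Of the 6 members, 3 passed the filter in adipose tissue (Fabp3, Fabp4 and Fabp5), 4 in liver (Fabp1, Fabp3, Fabp5 and Fabp7) and 3 in muscle (Fabp3, Fabp4 and Fabp5). Fabp2 passed in no tissue. In lean rats the members differed in the tissue where each was highest. These differences come from a joint fit of 54 arrays and 11520 probe sets, in which most probe sets differed between tissues (56.5% for adipose tissue against muscle, 54.4% for adipose tissue against liver and 54.7% for muscle against liver). Fabp1 was a liver transcript, with lean signals of 51900, 59100 and 44000 in liver against 9.4 to 12.5 in adipose tissue and 19.9 to 151 in muscle. Fabp7 was too, with 4390, 7830 and 3470 in liver and no lean signal over 44.7 elsewhere. Fabp3 was highest in muscle, at 9350, 6600 and 4990, and its adipose and liver levels (88.5, 219 and 221 against 123, 59.7 and 146) overlapped and did not differ by the test (0.58 ± 0.40, adjusted p = 0.23). Fabp4 ran from adipose tissue (13600, 12700 and 10100) through muscle (3340, 2440 and 2300) to liver (13.8, 20.4 and 12.1). The log2 steps were 2.17 ± 0.53 (adjusted p = 0.000561) and 6.25 ± 0.53 (adjusted p = 5.81e-14). Fabp4 was under the filter in liver and entered the joint fit through adipose tissue and muscle, where it is high. The test of the step to liver thus adds no evidence beyond the signals, and its size was 4.84 to 7.05 over the alternatives. Fabp5 ran from adipose tissue (2710, 3940 and 3050) through liver (748, 702 and 760) to muscle (434, 367 and 378). Its step from liver to muscle, 0.88 ± 0.34 (adjusted p = 0.0258), was lost without any of 4 single lean arrays (liver replicates 1 and 3, muscle replicates 2 and 3).

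Adipose Fabp3 was the member that moved most with the ligands. Its signals were 231, 402 and 583 in untreated obese rats, 405 ± 176 (SD, n = 3). Pioglitazone arrays had 14500, 13000 and 11600, rosiglitazone arrays 9820, 12700 and 13300, troglitazone arrays 11600, 9950 and 13800, and AG035029 arrays 9800, 9240 and 7710. All 12 ligand arrays lay far above all 6 lean and untreated obese arrays, of which the highest was 583. The mean of the 4 ligand groups exceeded untreated obese rats by 4.81 ± 0.23 in log2, 28.1-fold (adjusted p = 3.05e-10), which was rank 1 of 9519 by size and by p. Across all probe sets 9.01% rose in this comparison and 20.6% changed in either direction, and of the 3 tested members 1 rose and 0 fell. Signals of all ligand arrays lay above untreated obese rats for 4.91% of probe sets. Fabp3 was the member called with each single ligand, by 5.02 for pioglitazone (6.98% of probe sets rose), 4.89 for rosiglitazone (2.87%), 4.87 for troglitazone (7.81%) and 4.48 for AG035029 (6.71%). These 4 comparisons share the untreated obese arrays. Leaving out the arrays with wide residuals gave 4.83 (adjusted p = 2.11e-09). After treatment, the signals of this gene in fat lay in the range of its signals in muscle, 4990 to 19400 over the 18 muscle arrays. In whole tissue, more or fewer cells of a type and more or less RNA per cell cannot be told apart.

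Promoter windows were available for 4 of the 6 members and are shown for 3, because PPAR and its partner RXR bind a repeat of a short element, here spelled as AGGTCA, any 1 base and AGGTCA again, or more loosely with AGGNCA in both places. The 250 bases before the start site come from RefSeq on GRCr8, read 5′ to 3′ along the gene, and capitals mark matches to these repeats, to the single element AGGTCA, or to the TATA-type letters TATAAA and TATTTAA, searched on both strands.
Fabp3, chr5:147935875-147936124, plus strand: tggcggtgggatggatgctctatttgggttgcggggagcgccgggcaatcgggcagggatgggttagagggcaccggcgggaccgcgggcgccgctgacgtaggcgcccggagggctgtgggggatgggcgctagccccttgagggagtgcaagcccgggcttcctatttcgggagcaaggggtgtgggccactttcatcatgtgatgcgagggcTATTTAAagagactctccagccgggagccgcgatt
Fabp1, chr4:104749090-104749339, plus strand: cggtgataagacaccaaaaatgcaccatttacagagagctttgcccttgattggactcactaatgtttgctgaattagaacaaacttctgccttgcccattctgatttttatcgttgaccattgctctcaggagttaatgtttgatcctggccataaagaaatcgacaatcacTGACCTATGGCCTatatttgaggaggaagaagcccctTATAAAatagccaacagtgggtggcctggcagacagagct
Fabp7, chr20:37669356-37669605, plus strand: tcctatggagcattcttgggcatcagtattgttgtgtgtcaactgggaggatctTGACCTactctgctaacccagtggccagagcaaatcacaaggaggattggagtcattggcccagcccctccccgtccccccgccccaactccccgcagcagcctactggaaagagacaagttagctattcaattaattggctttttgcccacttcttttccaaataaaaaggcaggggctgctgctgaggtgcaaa
Fabp3, the member with the adipose rise, had neither form of the repeat nor a single element in its window, and held TATTTAA 35 to 29 bases before the start, letters found in 4.16% of 33469 promoters. Fabp1 held the looser repeat on the minus strand as TGACCTATGGCCT, 77 to 65 bases before the start, which overlaps a single element and which 0.368% of promoters hold (0.0508% for the stricter spelling), and TATAAA at 40 to 35 (12.9%). Fabp7 held 1 single element, 196 to 191 bases before the start, as 14.1% of promoters do. These matches describe letters in a short window only.

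Markers of the tissues where Fabp3 is usually abundant were read in the same arrays. Of the 8 slow or cardiac muscle markers, 1 (Tnni1) passed the filter in adipose tissue, myoglobin stayed at or below 19.2 on all 18 arrays, and the summed signal of the 8 was 304 to 475 in untreated obese rats and 389 to 619 over the ligand groups. Of the 11 fast muscle markers on the array 3 passed and 1, the myosin heavy chain gene Myh1, rose. The summed signal of the 11 was 4160 to 5450 in untreated obese rats and 6280 to 9060 in ligand groups. Most of it was Myh1, at 3250 to 4630 and 5100 to 8390. The Myh1 probe set was no brighter in muscle (median 7240) than in liver (median 9150), so it does not single out muscle here. Ckm and Atp2a1, which also passed, overlapped between these groups. Of the 6 brown fat markers on the array 1 passed, Cidea, a lipid droplet protein, and it rose by 0.87 ± 0.10. The summed signal of the brown fat list was 4310 to 4860 in untreated obese rats and 6770 to 10800 with ligands. Most of it was Cidea, at 4220 to 4690 and 6650 to 10100. Under the filter, Cox7a1 had 17.5 to 95.1 and 14.4 to 185, and Cox8b 3.6 to 5.5 and 6.4 to 286. Dio2 (8.2 to 16.8 and 7.5 to 18.9) and Ppargc1a (1.8 to 3.3 and 2 to 9.1) were under it as well. The uncoupling protein gene Ucp1, which defines brown fat, had 21.6 to 59.2 in untreated obese rats and 50.3 to 454 with ligands, under the filter. The liver plasma protein gene Alb moved too, from 188 to 350 in untreated obese rats to 2560 to 9190 with ligands, while Apoa1 stayed at or below 34.2. The part of Cidea, Myh1 and Alb in the Fabp3 rise was not tested.

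The fat cell form itself moved little in fat. Fabp4 signals were 16500, 10900 and 11900 in untreated obese rats, and 11900 to 19000 over the 12 ligand arrays with a median of 15800. The groups overlapped, and 5 of the 12 ligand arrays were above the highest untreated one. The ligand mean difference was 0.28 ± 0.14 (95% interval -0.0094 to 0.57, adjusted p = 0.162), and the same contrast passed without untreated obese replicate 1 or with array weights (0.41, adjusted p = 0.0146). Fabp5 signals were 4190, 5020 and 6860 in untreated obese rats and 4960 to 8010 with ligands, median 6700. The groups overlapped here as well, with a difference of 0.34 ± 0.14 (95% interval 0.037 to 0.64, adjusted p = 0.102), which passed without untreated obese replicate 3.

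**Figure D1:**
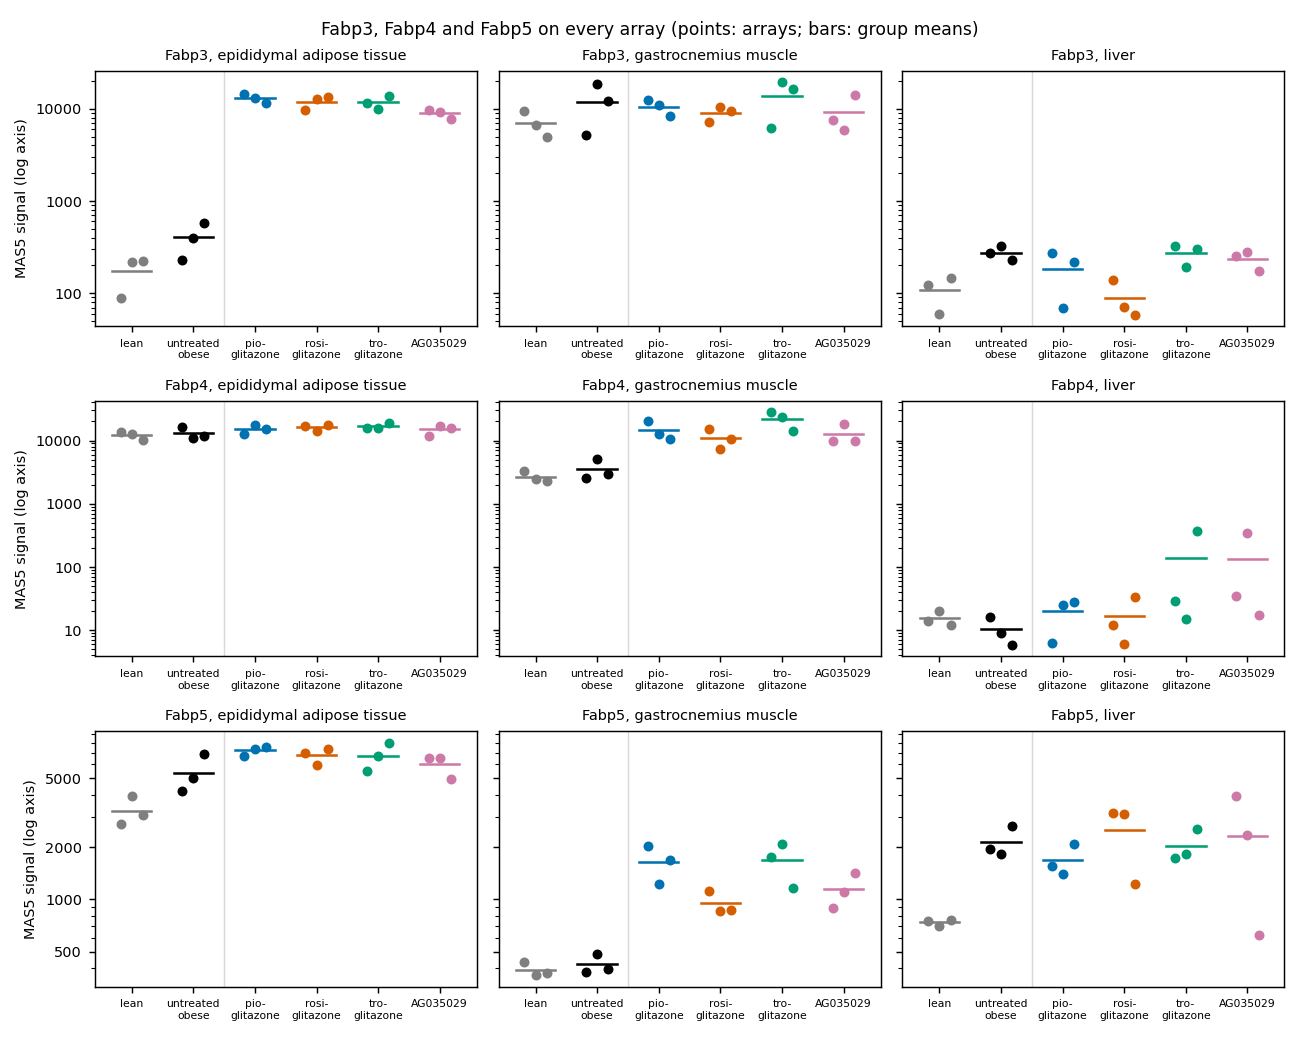
MAS5 signals of Fabp3, Fabp4 and Fabp5 (rows) in adipose tissue, muscle and liver (columns) on log axes, with 1 point per array and a bar at each group mean of 3 arrays. Adipose Fabp3 goes from 231 to 583 in untreated obese rats to 7710 to 14500 with ligands, while in muscle Fabp4 and Fabp5 are the members with all 12 ligand arrays above the untreated ones.

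In muscle Fabp4 and Fabp5 were the members that rose with the ligands. Fabp4 signals were 2540, 5140 and 2980 in untreated obese rats, 3550 ± 1390 (SD, n = 3). Pioglitazone arrays had 20400, 12700 and 10400, rosiglitazone arrays 15000, 7470 and 10500, troglitazone arrays 27800, 23700 and 14200, and AG035029 arrays 9910, 18200 and 9700. All 12 ligand arrays lay above all 6 untreated arrays, and the lowest ligand array was a rosiglitazone one. The ligand mean rose by 2.03 ± 0.26, 4.08-fold (adjusted p = 0.000296, rank 5 by p). Muscle Fabp4 was at 24.2% of its mean over the 18 adipose arrays in untreated obese rats, and at 74.7 to 149% of it in the ligand groups.

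Fabp5 signals in muscle were 383, 487 and 396 in untreated obese rats, 422 ± 56.8 (SD, n = 3). Pioglitazone gave 2030, 1220 and 1680, rosiglitazone 1120, 854 and 870, troglitazone 1760, 2100 and 1170, and AG035029 892, 1110 and 1420. Again no ligand array overlapped an untreated one. The rise was 1.58 ± 0.18, 2.98-fold (adjusted p = 9.45e-05, rank 2 by p). Of all 9519 probe sets, 23 were called in this muscle comparison (0.242%, and 0.221% higher), and 2 of the 3 tested members were among them. All arrays of the ligand groups lay above untreated obese rats for 0.326% of probe sets. Against lean rats the ligand mean was higher by 2.38 for Fabp4 and 1.67 for Fabp5 (adjusted p = 1.78e-05 and 1.75e-05, where 1.11% of probe sets were called).

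Fabp3, the muscle form, showed no called change in its own tissue. Its signals were 5180, 18400 and 12000 in untreated obese rats and 5910 to 19400 with ligands, median 9940, so the groups overlapped. The ligand mean difference was -0.065 ± 0.33 (95% interval -0.76 to 0.63, adjusted p = 0.985). Its level varied along with the 8 slow muscle markers, whose summed signal ran from 34200 to 152000 in untreated obese rats. Over the 18 muscle arrays the log2 sum and Fabp3 had a Pearson r of 0.877 and a Spearman rho of 0.868, as a description of arrays that share a scaling, and r was 0.849 without the 2 arrays farthest from the median.

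The ligands can be compared member by member, although the doses that were given are not in the labels. The 6 pairs of ligands gave 60 member contrasts over the 3 tissues, of which limma called 0 after adjustment over all probe sets and 10 had an unadjusted p under 0.05. In limma's F-test among the 4 ligands, 0 of 10 member tests were called and 3 had an unadjusted p under 0.05 (Fabp4 and Fabp5 in muscle and Fabp3 in liver), while the share of all probe sets called was 0.0315% for adipose tissue, 0.0105% for liver and 0% for muscle. In adipose tissue the Fabp3 rise with AG035029 was lower than with pioglitazone by 0.55 in log2, with an interval from -0.052 to 1.14, and the highest AG035029 signal, 9800, stood next to the lowest rosiglitazone one, 9820. In muscle, Fabp4 and Fabp5 were both lowest with rosiglitazone among the group means. Rosiglitazone minus troglitazone was -0.999 for Fabp4 (-1.67 to -0.32, adjusted p = 0.35) and -0.78 for Fabp5 (-1.25 to -0.32, adjusted p = 0.282).

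Taken ligand by ligand, Fabp4 in muscle rose by 2.03 with pioglitazone (adjusted p = 0.00543), 2.63 with troglitazone (adjusted p = 0.000204) and 1.82 with AG035029 (adjusted p = 0.0207). With rosiglitazone its value was 1.63 (95% interval 0.96 to 2.31, adjusted p = 0.0755), which did not pass. Fabp5 in muscle rose by 1.89, 1.91 and 1.38 with pioglitazone, troglitazone and AG035029 (adjusted p = 0.000252, 0.000145 and 0.0125), and its rosiglitazone value was 1.13 (0.66 to 1.59, adjusted p = 0.0755). Few probe sets rose in these comparisons, 0.2% for pioglitazone, 0.021% for rosiglitazone, 0.599% for troglitazone and 0.0945% for AG035029. Single arrays settled some of these calls. Fabp4 with pioglitazone was lost without pioglitazone replicate 1, and the AG035029 calls were lost without AG035029 replicate 3 or untreated obese replicate 1 or 3 for either gene and also without AG035029 replicate 2 for Fabp4. Both AG035029 calls were lost too without the trend (adjusted p = 0.0963 for Fabp4 and 0.0536 for Fabp5), with only the compared arrays (0.0676 and 0.0567) and at a threshold of 0.01, and over all alternatives the adjusted p was 0.0103 to 0.126 and 0.00775 to 0.0982. The rosiglitazone value of Fabp4 passed without AG035029 replicate 2, untreated obese replicate 2 or troglitazone replicate 3, and that of Fabp5 without AG035029 replicate 1 or troglitazone replicate 2 or 3.

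**Figure D2:**
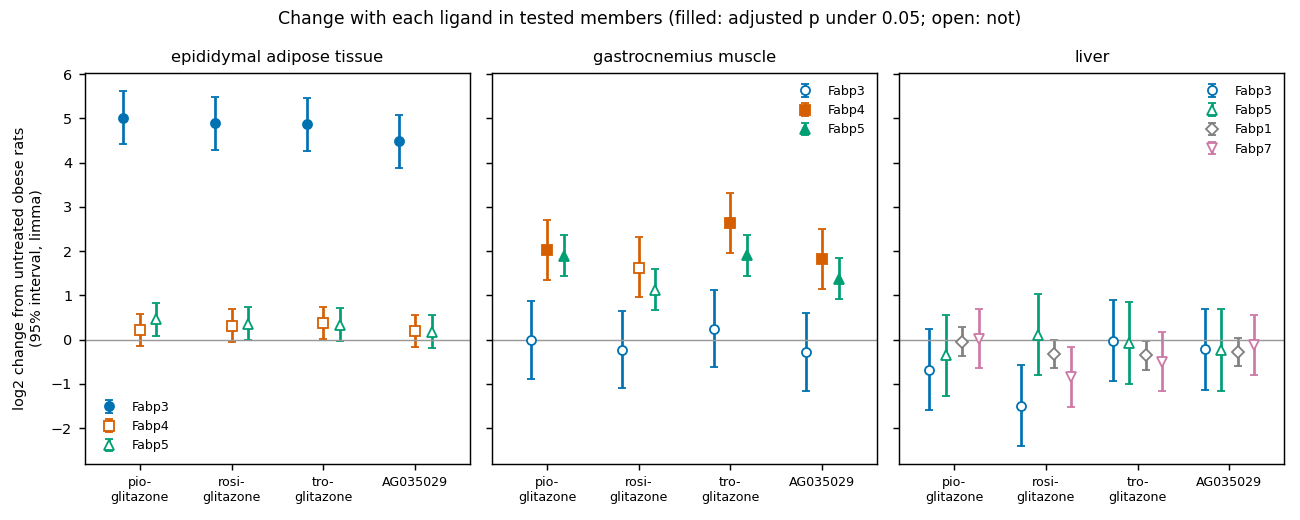
Log2 change of each tested member with each ligand against untreated obese rats, with 95% intervals from limma, in adipose tissue, muscle and liver. Filled symbols have an adjusted p under 0.05: Fabp3 with all 4 ligands in adipose tissue, and Fabp4 and Fabp5 with 3 of 4 ligands in muscle, where the open rosiglitazone symbols sit at 1.63 and 1.13.

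The muscle arrays with high Fabp4 and Fabp5 also had more signal from a list of fat cell markers. Of 10 listed markers 7 were on the array, 4 passed the filter in muscle and 1 of them rose, the glycerol channel gene Aqp7 (1.71 ± 0.29, adjusted p = 0.00501). The summed signal of the 7 was 978 to 1680 in lean rats, 1050 to 1360 in untreated obese rats, 2000 to 4770 for pioglitazone, 1860 to 1990 for rosiglitazone, 2540 to 7290 for troglitazone and 1210 to 3550 for AG035029. Within the 12 ligand arrays the Pearson r of the log2 sum was 0.841 with Fabp4 and 0.797 with Fabp5. AG035029 replicate 1 had a sum of 1210, inside the untreated range. Its Fabp4 signal was 9910 and its Fabp5 signal 892, above every untreated array (at most 5140 and 487). On that array Aqp7 (522) and hormone-sensitive lipase (Lipe, 113) were also above every untreated array (at most 378 and 86.1). Adipsin (Cfd, 287) and Plin1 (93.7) were below every one, and Lep, Acvr1c and Adrb3 had 12.3, 19.4 and 164. Without the pair of arrays with a Lep signal over 100, the ligand mean was 1.91 for Fabp4 (adjusted p = 0.000498) and 1.52 for Fabp5 (adjusted p = 0.000209). In the troglitazone group, the muscle mean was 26.3% of the adipose mean for Plin1, 19.3% for Adrb3, 18.2% for Aqp7 and 17.6% for Cfd. It was 6.89% for Lipe, 3.22% for Acvr1c and 3.05% for Lep, beside 149% for Fabp4 and 28.5% for Fabp5. In untreated obese rats the 7 markers had 12.6, 13.8, 3.42, 4.17, 0.686, 1.06 and 0.732% in the same order. Fabp4 had 24.2% there and Fabp5 7.16%.

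Blood vessel cells also make Fabp4, and the endothelial list was read for that reason. Its 8 members on the array all passed in muscle and 1 rose, Gpihbp1 (1.56 ± 0.19, adjusted p = 0.000137), which holds lipoprotein lipase on the capillary wall. Their summed signal was 3030 to 3580 in untreated obese rats and 3800 to 7480 with ligands, and the median change of the 8 was 0.0854 against -0.038 for all probe sets. Beyond the values given here, the part of fat cells or vessel cells in the muscle rise was not tested.

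**Figure D3:**
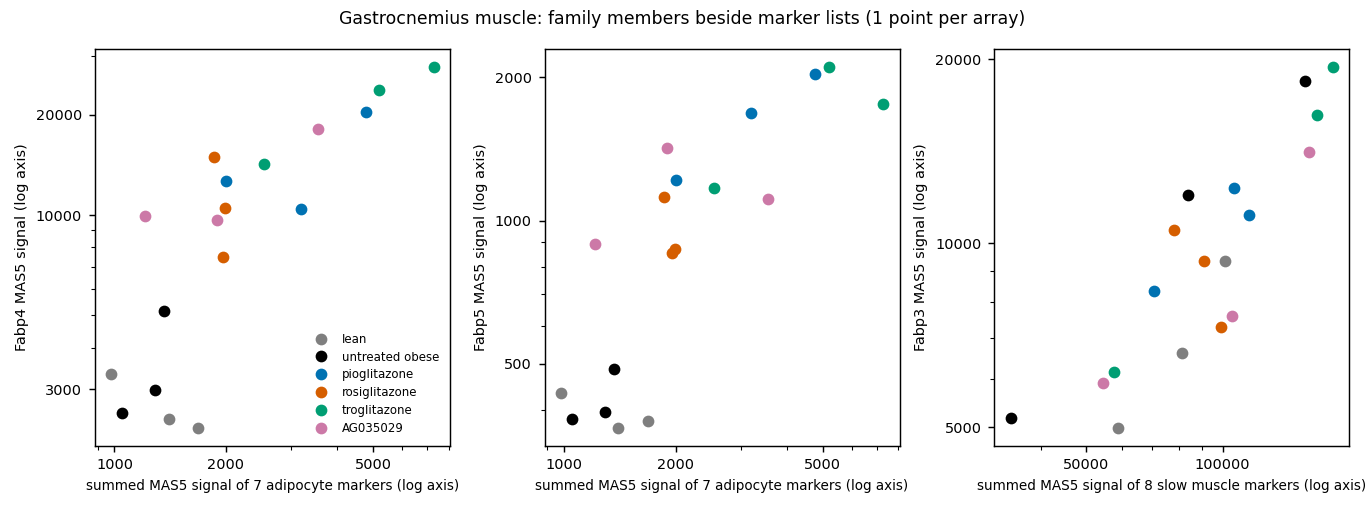
Gastrocnemius muscle, 1 point per array and 6 groups by colour, log axes: Fabp4 and Fabp5 signals against the summed signal of 7 fat cell markers, and Fabp3 against the summed signal of 8 slow muscle markers. The AG035029 array with a fat cell sum of 1210 has Fabp4 at 9910. Of its fat cell markers, Aqp7 (522) and Lipe (113) are above every untreated array, and Cfd (287) and Plin1 (93.7) below. Over the 18 arrays Fabp3 and the slow muscle sum have a Pearson r of 0.877.

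The difference between tissues was tested in the joint fit. The ligand effect on Fabp3 was larger in adipose tissue than in muscle by 4.88 ± 0.45 (adjusted p = 7.38e-10) and than in liver by 5.41 ± 0.45 (adjusted p = 2.44e-11). Of 11520 probe sets, 2.08% differed between adipose tissue and muscle and 4.43% between adipose tissue and liver. For Fabp4 the adipose effect was below the muscle effect by 1.75 ± 0.59 in log2 and for Fabp5 by 1.24 ± 0.38, and neither passed in that fit (adjusted p = 0.124 and 0.0744). Both passed when the 36 adipose and muscle arrays were fitted without liver (adjusted p = 0.00117 and 0.00144), an alternative added after the data were seen, and the range over all alternatives was 0.00117 to 0.36 for Fabp4 and 0.00144 to 0.265 for Fabp5. Liver arrays bear on this through the shared spread, since Fabp4 in liver was at or below 34.2 except for 376 in troglitazone replicate 3 and 346 in AG035029 replicate 2, and leaving out either of these let the Fabp4 difference pass. The Fabp5 difference passed without liver AG035029 replicate 1 or 3 or liver rosiglitazone replicate 3. For Fabp5 the muscle effect exceeded the liver effect by 1.71 ± 0.38 (adjusted p = 0.0115, 0.859% of probe sets called), which was lost without liver untreated obese replicate 3 or muscle untreated obese replicate 1.

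Between lean and untreated obese rats, 2 of the 3 tested members rose in adipose tissue and 0 fell, where 3.16% of all probe sets rose and 6.02% changed. Fabp3 rose from 88.5, 219 and 221 in lean rats to 231, 402 and 583 in untreated obese rats, by 1.12 ± 0.29 (adjusted p = 0.0245), with no overlap. Fabp5 rose from 2710, 3940 and 3050 to 4190, 5020 and 6860, by 0.71 ± 0.18 (adjusted p = 0.0239), also without overlap. Of all probe sets 12.9% lay higher without overlap. Both calls were weak. That of Fabp3 was lost without lean replicate 1 or untreated obese replicate 2 or 3, and that of Fabp5 without lean replicate 1 or 3 or untreated obese replicate 2 or 3, with adjusted p up to 0.136 and 0.134. Fabp4 had a value of 0.097 ± 0.17 (adjusted p = 0.807). Macrophages, which also make Fabp5 and Fabp4, had more marker signal in the same arrays, with 5 of 9 tested markers higher and a summed signal of 12400 to 13400 in lean and 23800 to 25600 in obese rats, and their part in the Fabp5 rise was not tested. The summed signal of 7 epithelial markers, some of which mark cells that make Fabp5, was 806 to 1870 in lean and 678 to 5340 in untreated obese rats, with Epcam up to 52.4 and up to 1160. Of the 4 tested epithelial markers 0 were called. Signals in lean and untreated obese rats reached 717 and 1590 for Krt8, 682 and 1720 for Krt19, and 175 and 494 for Krt18. They reached 11.8 and 254 for Cdh1, 182 and 189 for Krt5, and 81.2 and 31 for the keratinocyte gene Krt14. The part of epithelial cells in the Fabp5 rise was not tested either. With ligands the macrophage sum was 12500 to 22500 and 6 of the 9 macrophage markers fell, beside 11.6% of all probe sets. The summed signal of 7 fat cell markers was 27500 to 31200 in untreated obese rats and 31400 to 43200 with ligands. Fabp5 signals were 4960 to 8010 with ligands, and the part of either cell type in them was not tested. Against lean rats, the ligand mean was higher by 5.93 for Fabp3 and by 1.05 ± 0.14 for Fabp5 (adjusted p = 8.06e-12 and 2.22e-05, where 35.5% of probe sets were called). For Fabp4 it was higher by 0.38 ± 0.14 (adjusted p = 0.0405), a call that 14 of 30 alternatives ended, among them 9 that left out 1 of these arrays: lean replicate 2 or 3, pioglitazone 2 or 3, rosiglitazone 1 or 3, troglitazone 3 and AG035029 2 or 3. The replicate block also ended it (adjusted p = 0.0569).

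In muscle 0 of the 3 tested members were called between lean and untreated obese rats, none with an unadjusted p under 0.05 in limma, and 0.021% of probe sets were. The values were 0.63 ± 0.42 for Fabp3, 0.35 ± 0.32 for Fabp4 and 0.094 ± 0.22 for Fabp5.

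In liver the brain form Fabp7 was the member that fell with obesity. Its signals were 4390, 7830 and 3470 in lean rats, 5230 ± 2300 (SD, n = 3), and 1220, 772 and 850 in untreated obese rats, 948 ± 241. Every lean array lay above every obese one, treated or not. The fall was 2.38 ± 0.32 in log2, 5.20-fold (adjusted p = 0.000383), in a comparison where 0.294% of probe sets fell and 0.672% changed, and 1 of the 4 tested members was called. Lean arrays lay above untreated obese ones without overlap for 7.19% of probe sets. With ligands Fabp7 stayed low, at 366 to 1190 over 12 arrays with a median of 712, and its ligand mean difference was -0.36 ± 0.26 (adjusted p = 0.675). Against lean rats the ligand mean was lower by 2.74 ± 0.26 in log2 (adjusted p = 1.44e-06, 3.18% of probe sets called). Markers of nerve and Schwann cells, which could carry this gene, had a summed signal of 764 to 1310 in lean and 799 to 1060 in untreated obese livers, with 0 of 4 tested markers called and 0 at an unadjusted p under 0.05 (limma). The summed signal of 9 macrophage markers was 7140 to 10100 in lean, 6610 to 6870 in untreated obese and 6900 to 9850 in ligand-treated livers. The part of either cell type in the Fabp7 fall was not tested. The obesity effect on Fabp7 differed between muscle and liver by 3.03 ± 0.70 (adjusted p = 0.0317, 0.33% called), though the muscle signals were between 3.3 and 96.2. That call was lost without any of 8 single arrays (liver lean 1 or 2, liver obese 2 or 3, muscle lean 2 or 3, muscle obese 1 or 2), with an adjusted p up to 0.265. Fabp7 did not pass the filter in muscle and entered the joint fit through its liver signals alone. The contrast thus rests on the liver fall and gives no separate evidence of a difference between tissues.

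Fabp5 in liver went the opposite way, from 748, 702 and 760 in lean to 1940, 1830 and 2660 in untreated obese rats. The arrays did not overlap, as for 6.56% of probe sets in that direction, but the difference of 1.5 ± 0.44 did not pass (adjusted p = 0.159). It passed without AG035029 replicate 3, a liver array with a Fabp5 signal of 622, and when the 6 lean and untreated obese arrays were fitted alone (adjusted p = 0.00296). With ligands the signals spread from 622 to 3960, and the ligand mean against lean was higher by 1.36 ± 0.35 (adjusted p = 0.0322), a call lost without lean replicate 1, 2 or 3, pioglitazone replicate 3 or AG035029 replicate 2.

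Fabp1, the main carrier of liver cells, changed little. Signals were 51900, 59100 and 44000 in lean, 53700, 54700 and 41600 in untreated obese, and 34300 to 51500 with ligands, with overlap between all 3. The obese difference was -0.049 ± 0.15 (95% interval -0.37 to 0.27, adjusted p = 0.959) and the ligand mean difference was -0.25 ± 0.12 (-0.50 to 0.0051, adjusted p = 0.478), where 0.494% of probe sets were called. For the ligand mean in liver, 0 of the 4 tested members were called and 0 had an unadjusted p under 0.05 (limma). The 3 troglitazone arrays, at 38200, 39000 and 39300, lay below all untreated obese ones, as for 8.16% of probe sets, without a call (-0.35 ± 0.15, adjusted p = 0.441). Fabp3 in liver was dim, with 123, 59.7 and 146 in lean, 270, 322 and 231 in untreated obese and 138, 70.5 and 58.8 with rosiglitazone. Its values of 1.24 ± 0.44 for obesity and -1.49 ± 0.44 for rosiglitazone did not pass (adjusted p = 0.28 and 0.219). Neither pair of groups overlapped, while 6.56% of probe sets were higher without overlap with obesity and 5.83% lower with rosiglitazone. Fabp2, the intestinal form, was under the filter, with 10.6, 94.2 and 9.9 in lean and 156, 141 and 219 in untreated obese livers, and 14.9 to 148 with ligands. Lean and untreated obese arrays did not overlap, as for 6.56% of tested probe sets in that direction. The ligand arrays overlapped both, no test was run on Fabp2, and signals this dim give no order. Of the enterocyte markers, Apoa4, which liver also makes, rose in the same obese livers (1.36), while the sugar-cleaving enzyme gene Si stayed at or below 16.5 in lean and untreated obese livers.

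**Figure D4:**
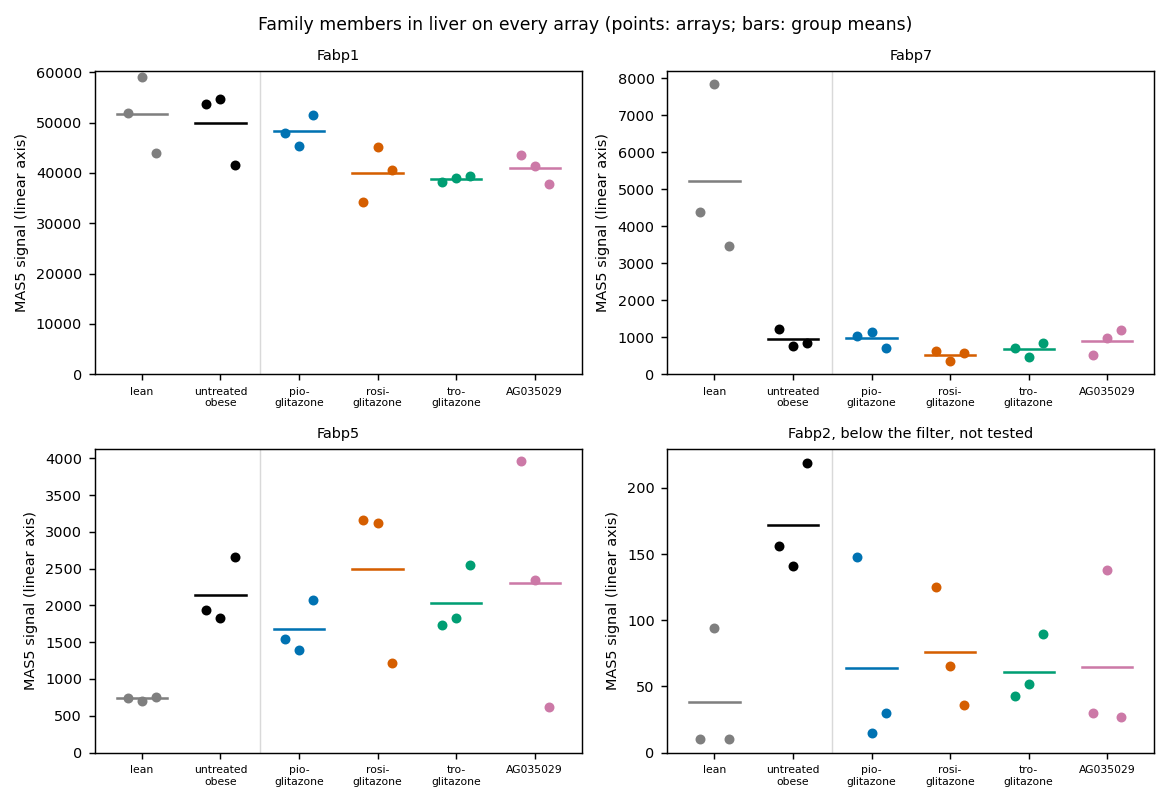
MAS5 signals of Fabp1, Fabp7, Fabp5 and Fabp2 in liver on linear axes from 0, with 1 point per array and a bar at each mean of 3 arrays. Fabp7 drops from 3470 to 7830 in lean rats to 366 to 1220 in all obese groups, Fabp5 is at 702 to 760 in lean rats and reaches 3960, and Fabp1 stays between 34300 and 59100.

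The rest of fatty acid handling was read from a list of 61 genes, of which 56 were on the array. In adipose tissue 26 of 45 tested genes rose with the ligand mean and 2 fell, beside 9.01% and 11.6% of all probe sets, with a median change of 0.478 against -0.0484 for all probe sets. Among oxidation genes 9 of 10 rose, led by the mitochondrial carnitine transferase Cpt1b (2.26 ± 0.13) and the peroxisomal enzyme Ehhadh (2.05 ± 0.14), and Cpt1a, the liver form, fell by 0.30. Storage genes rose in 6 of 9, among them Agpat2 (1.48) and Lpin1 (0.95), enzymes of triglyceride assembly. Uptake genes rose in 3 of 9, with the transporter Slc27a1 at 1.18 and the scavenger receptor Cd36 at 0.59. Of the 3 tested genes for other small lipid carriers on the list all rose. They were the retinol binding protein Rbp7 (1.32), the acyl-CoA binding protein Dbi (0.72) and the sterol carrier Scp2 (0.52).

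In muscle 4 of 47 list genes rose and 0 fell, beside 0.221% of all probe sets that rose. They were Rbp7, with signals of 85.6, 172 and 83.3 in untreated obese rats and a mean of 2810 over the ligand arrays (4.34 ± 0.31, adjusted p = 1.04e-07), the monoglyceride lipase gene Mgll (1.68 ± 0.22), Gpihbp1 and Pparg itself (2.01 ± 0.32, with a mean signal of 43.6 in untreated obese and 246 in ligand-treated rats). Of the 10 tested oxidation genes 0 were called there, and 0 had an unadjusted p under 0.05 (limma). In liver 0 of 43 were called with the ligand mean and 9 had an unadjusted p under 0.05 (limma), and Acsl5 and the lipase inhibitor G0s2 rose with obesity (1.17 and 1.27, where 0.378% of all probe sets rose). In adipose tissue 4 of 45 rose and 6 fell between lean and untreated obese rats, beside 3.16% and 2.86% of all probe sets, with Plin2, a lipid droplet coat gene, at 1.68 and Pparg at -1.07.

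The 3 genes whose log2 signals followed a member most closely over the 18 arrays of the tissue with its largest ligand effect were named by rule. For Fabp3 in adipose tissue they were Ptprn (r = 0.977), Dbi (0.975) and Resp18 (0.968), of which Ptprn and Resp18 encode secretory vesicle proteins. For Fabp4 in muscle they were Mgll (0.955), Rbp7 (0.955) and Aqp7 (0.944), and for Fabp5 in muscle Mgll (0.975), Rbp7 (0.953) and Fabp4 (0.942). For Fabp7 in liver they were Tspan12 (0.902), Ang (0.888) and Sem1 (0.853), and for Fabp1 in liver Ndufa1 (0.822), Rpl7l1 (0.809) and Cdo1 (0.793). The arrays in each of these fall into untreated and ligand groups, or lean and obese ones, and share 1 scaling, so these values describe likeness only.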

How the data were processed

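The authors deposited linear intensities from MAS5, named in the submitters' processing notes with no version. Their mean after trimming 2% at each end was 495 to 499 over the arrays, which were used without another scaling. RNA of 2 rats was pooled per array, per the labels' protocols. Of 15923 probe sets, 57 controls were left out. All p-values come from limma 3.58.1 in R 4.3.3 on log2(signal + 20), with eBayes and trend, in 1 fit of 18 arrays per tissue (12 residual degrees of freedom) and a joint fit of 54 arrays (36), adjusted by Benjamini-Hochberg over 9519 or 11520 probe sets at 0.05. Scripts were tested on simulated data. Having 3 arrays per group limits the precision, and p-values measure the spread between pools. The members, gene lists and tests were chosen with earlier results of these data known. Named genes were the members, called genes of the fatty acid handling list (up to 5 a role), 3 nearest patterns per member and cell type markers. The comparison of Fabp3 with the slow muscle sum, the values of Fabp6, Fabp9 and Fabp12, and genes named for obesity alone were chosen after their values were seen. Lists use the probe set with the highest mean per gene, with symbols from GEO's platform annotation, and the Entrez identifiers of all 6 members matched the reference table. Alternatives were other pseudocounts (5 and 80), filters, normalizations, trend, array weights, a replicate block, fits of the compared arrays, 0.01 as the threshold, and leaving out arrays. Same-numbered arrays had mean residual correlations of 0.0184 (adipose), 0.00322 (liver) and 0.0117 (muscle), and the numbers were not treated as pairs.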

Additional observations from a re-analysis of the deposited data

Results flagged for a closer look

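These 4 results were singled out because a group's effect differed between tissues by a test of the difference itself (limma, joint fit of 54 arrays). The ligand mean effect on Fabp3 was larger in adipose tissue than in muscle by 4.88 (adjusted p = 7.38e-10) and than in liver by 5.41 (adjusted p = 2.44e-11), with ranges of 4.47 to 5.72 and 5.05 to 6.25 over the alternatives, all of them called. The ligand mean effect on Fabp5 was larger in muscle than in liver by 1.71 (adjusted p = 0.0115), with a range of 1.52 to 1.85, and 63 of 66 alternatives kept the call. The obesity effect on Fabp7 differed between muscle and liver by 3.03 (adjusted p = 0.0317), with a range of 2.58 to 3.52. Of 66 alternatives 54 kept the call, and the muscle signals behind it were at most 96.2. Fabp7 was under the filter in muscle, so this result rests on the liver fall and gives no separate evidence of a difference between tissues.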

How the results depend on the processing

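No called value changed its direction under any alternative. Counts of called members held in 271 of 291 comparisons with another setting and in 727 of 756 with 1 array left out, where held means within 1.5 times. For the ligand effect in adipose tissue against muscle, 1 member was called, against 4 with array weights, 2 without the arrays in doubt, 3 in the fit of 36 arrays, 2 with a pseudocount of 80, 2 with quantile normalization and 1 to 2 with an array left out. For muscle against liver the count was 1, against 0 at a threshold of 0.01, 2 without the arrays in doubt and 0 to 2 with an array left out. For the obesity effect in muscle against liver it was 1, against 0 at 0.01, 0 with array weights, 0 with a pseudocount of 5, 0 with a replicate block and 0 to 1 with an array left out, and in adipose tissue against liver it was 0, against 1 with a pseudocount of 80. For the ligand mean against lean in liver it was 2, against 1 at 0.01, 1 without the arrays in doubt, 1 without trend and 1 to 2 with an array left out. For the ligand mean in adipose tissue it was 1, against 2 with array weights and 1 to 2. For obese against lean it was 2 in adipose tissue, against 0 at 0.01, 1 with no filter, 0 with only the compared arrays and 0 to 2, and 1 in liver, against 2 with only the compared arrays and 1 to 2. The replicate block, which the labels do not define as a pairing, moved no other count by over 1.5 times, but took the count for the ligand mean against lean in adipose tissue from 3 to 2, since the Fabp4 call was lost (adjusted p = 0.0569). The calls summed over the 4 ligands in muscle were 6, with a range of 4 to 8. The arrays in doubt (2 per tissue) were chosen after the data were seen, by residual spread in adipose tissue, by a Fabp4 signal over 100 in liver and by a Lep signal over 100 in muscle, and the cause of these shifts was not tested. Dim members (Fabp2 everywhere, Fabp1 and Fabp7 outside liver, Fabp4 in liver) lie near background, and their values give no order.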

Other observations

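Besides the 6 members, 3 other family genes had a probe set. Fabp12 was a liver transcript on this array, with signals of 620, 884 and 434 in lean, 312, 337 and 314 in untreated obese, and 208 to 457 in ligand-treated livers, and at most 90.7 in the other tissues. Its obesity difference was -0.91 ± 0.27 (limma, adjusted p = 0.165), and against lean rats the ligand mean was lower by 0.79 ± 0.21 in log2 (adjusted p = 0.0475). The bile acid carrier Fabp6 stayed at or below 139 and the testis form Fabp9 at or below 106 on all arrays. In all, 2 pseudogenes of Fabp5 are in the reference table, and whether the Fabp5 probes also match their transcripts was not tested.

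Fabp1 in muscle was under the filter, near background, and was not tested there. Its signals were 22.6, 30.7 and 26.8 in untreated obese rats and 17.2 to 189 with ligands, with overlap. In the joint fit its ligand effect in muscle was not called against adipose tissue or liver (limma, adjusted p = 0.152 and 0.143). Lean muscle arrays had 19.9, 151 and 59.5, inside the range of the ligand arrays.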
